A study of Bos taurus with 10 samples.

Results

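The 39 Hox cluster genes of the table were examined: every row whose symbol is Hox followed by a cluster letter a to d and a number, 39 of 21130 rows. They comprise 11 HoxA, 10 HoxB, 9 HoxC and 9 HoxD genes, and the rows were picked by symbol and not by value. The set itself was chosen with earlier results of these data known. The libraries are labelled as muscle of cattle aged 24 months. In 7 of them (LN010 to LN016, here MSTN+/- replicates 1 to 7) the genotype label is MSTN+/-, 1 altered copy of the gene of myostatin, a secreted inhibitor of muscle growth. In the other 3 (LN018, LN019 and LN020, here wild-type replicates 1, 2 and 3) it is wild type. The labels give no other allele, no treatment, no breed, no named muscle, no way in which the MSTN allele was made, and no statement that each library is 1 animal, so the p-values measure the spread between libraries, which may be technical.

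The rows describe another species than the label: all 39 Hox rows are annotated as Mus musculus, and 0 of their gene identifiers matched a RefSeq table of cattle genes (assembly ARS-UCD2.0), although all 39 symbols did. The marker genes also go against the label of muscle, with exceptions. The median of 20 skeletal muscle markers was 0.305 to 0.815 FPKM (fragments scaled by transcript length and library size) in the MSTN+/- libraries and 0.14, 0.445 and 0.69 FPKM for wild-type replicates 1, 2 and 3. Their sum was 28.7 to 63.2 FPKM and 41.25, 179 and 149 FPKM in the same order. Mylpf gave 155 and 125 FPKM of it for wild-type replicates 2 and 3. Myh2 was at 5.73 to 15.3 FPKM among the MSTN+/- libraries, and Acta1 was at 24.4 FPKM for wild-type replicate 1. Of 3 muscle progenitor markers found, none reached 1 FPKM anywhere. Mstn itself was listed at 0 in 7 libraries and at no more than 0.18 FPKM, so it cannot check the genotype labels. FPKM totals ran from 402716 to 464418 and 11856 to 13858 genes reached 1 FPKM. Groups are therefore called by their labels, and no difference is ascribed to the genotype.

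The 3 libraries labelled wild type do not form 1 group. Across 14047 genes, wild-type replicates 2 and 3 correlated with each other at 0.975 and with wild-type replicate 1 at 0.751 and 0.773 (Pearson's r of log2(FPKM + 1) taken over genes, which do not count as replicates). The summed level of 10 pluripotent cell markers was 1241 to 1974 FPKM among the MSTN+/- libraries, 2359 and 2705 FPKM for wild-type replicates 2 and 3, and 32.1 FPKM for wild-type replicate 1. The median of the 10 was 5.58 to 60.3, 179 and 166, and 0.15 FPKM in the same order. Pou5f1 (633 to 848 FPKM) and Klf4 (348 to 616 FPKM) were higher among the MSTN+/- libraries than for wild-type replicates 2 and 3. Those had 346 and 533 FPKM of Pou5f1 and 96.6 and 156 FPKM of Klf4. The other listed genes except Sox2 were lower among the MSTN+/- libraries than in that pair. The summed level of 10 fibroblast markers ran the other way from the pluripotent sum, at 3234 to 6314, 600 and 511, and 7291 FPKM in the same order. Its members were mixed in wild-type replicate 1. Dcn and Lum were at 24.3 and 28.8 FPKM there, below the MSTN+/- ranges of 169 to 324 and 45.2 to 99.9 FPKM. The other fibroblast markers were within or above their MSTN+/- ranges. Results that turn on wild-type replicate 1 are given below with and without it.

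Hox genes encode homeodomain transcription factors that assign position along the head-to-tail axis and, for the 5' genes, along the limb. They lie in clusters, and members at the same place in different clusters form paralog groups, with paralog 1 at the 3' end and paralog 13 at the 5' end. Their order on the chromosome follows the order in which they come on, so low-numbered paralogs mark anterior levels and high-numbered paralogs mark posterior and distal levels. Connective tissue cells and fibroblasts keep the Hox pattern of their site of origin in the adult, whereas in pluripotent cells the clusters are mostly silent under Polycomb repression.

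Most of the Hox signal lay in 8 of the 10 libraries. The 39 genes summed to 163 to 196 FPKM among the MSTN+/- libraries (median 187) and to 176 FPKM for wild-type replicate 1. In wild-type replicates 2 and 3 they summed to 19.96 and 8.70 FPKM. In the MSTN+/- libraries 31 to 33 members were at 1 FPKM or more, against 30 in wild-type replicate 1. In wild-type replicate 2 only 4 were (among them Hoxb9, Hoxc6 and Hoxd13), and in wild-type replicate 3 only Hoxd13. The fibroblast marker sum is high and low in the same libraries as the Hox sum, and the part of cell makeup in the Hox levels was not tested. In bulk RNA, fewer cells of a type and less RNA per cell cannot be told apart.

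**Figure D1:**
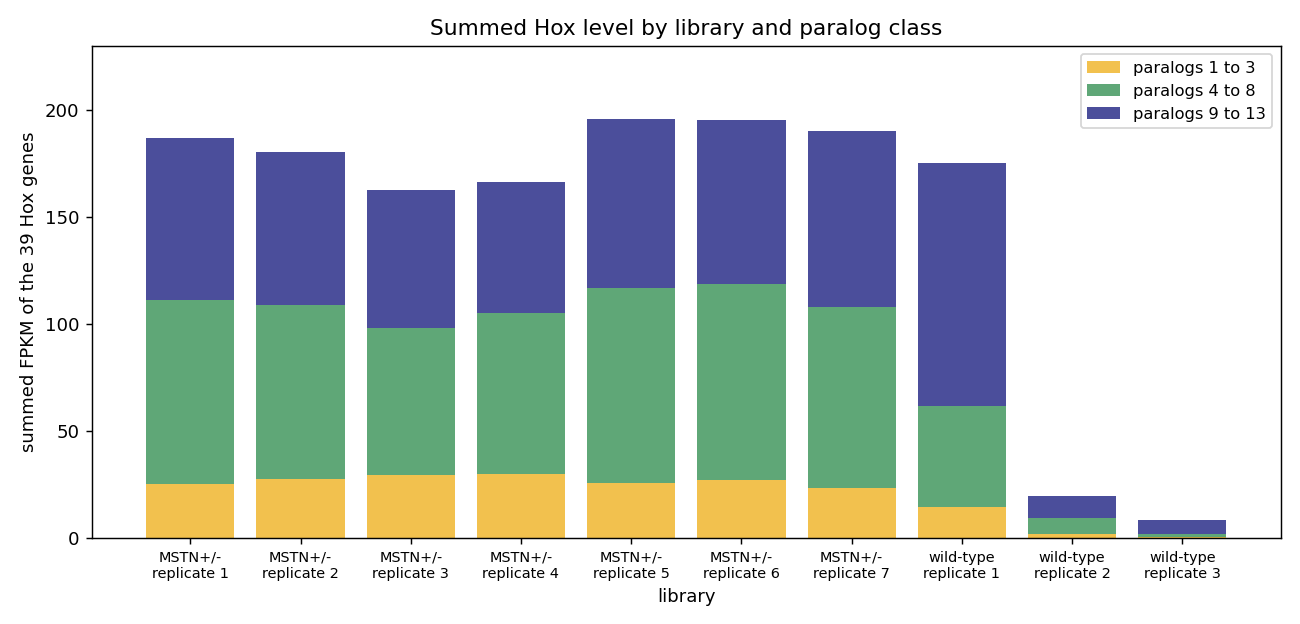
Summed FPKM of the 39 Hox genes (bar height) in each of the 10 libraries, stacked by paralog class. Wild-type replicate 1 has a total within the MSTN+/- range (176 against 163 to 196 FPKM) but more of it in paralogs 9 to 13 (114 against 61.1 to 81.9 FPKM), and wild-type replicates 2 and 3 have 19.96 and 8.70 FPKM.

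The total was similar in wild-type replicate 1 but its makeup was not. Paralogs 9 to 13 held 64.8% of its Hox signal, against 36.7% to 43.1% in the MSTN+/- libraries. Paralogs 4 to 8 held 27.0% against 42.0% to 46.7%, and paralogs 1 to 3 held 8.27% against 12.3% to 18.3%. In FPKM, paralogs 9 to 13 summed to 114 in wild-type replicate 1 and to 61.1 to 81.9 in the MSTN+/- libraries, while paralogs 4 to 8 summed to 47.3 and to 68.4 to 91.2. The division into these 3 classes was made after the values were seen.

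Cluster sums gave another view. HoxA was at 65.1 to 76.5 FPKM among the MSTN+/- libraries and at 41.3 FPKM for wild-type replicate 1, below all 7. HoxD was at 27.7 to 39.2 FPKM and at 59.7 FPKM, above all 7. In HoxA even paralogs 9 to 13 summed to less in wild-type replicate 1, 29.1 FPKM against 32.6 to 41.9 FPKM. HoxB, at 29.5 to 37.4 against 35.9 FPKM, and HoxC, at 36.6 to 55.8 against 38.6 FPKM, lay within the range. The highest cluster was HoxB at 5.88 FPKM for wild-type replicate 2 and HoxD at 3.97 FPKM for wild-type replicate 3.

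limma was run on log2(FPKM + 1) over the whole table, with genes kept where 3 or more libraries reached 1 FPKM, and a gene was called at a Benjamini-Hochberg adjusted p under 0.05. Of the 39 Hox genes 33 met this filter, all of them through the MSTN+/- libraries alone, so the filter favours genes that are high there. Hoxb1, Hoxb13, Hoxc11, Hoxc12, Hoxc13 and Hoxd1 were not tested. Differences are MSTN+/- minus wild type, in log2(FPKM + 1), a scale that shrinks the differences of low genes.

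With all 10 libraries, 25 of the 33 tested Hox genes were higher in the MSTN+/- libraries (75.8%), where 31.8% of all tested genes were. By limma 0 were lower, where 12.8% of all genes were; 26 had an unadjusted p under 0.05 and none of these was lower. The median difference was 1.39 over the 33 genes and 0.17 over all genes. In 16 of the 33 genes all 7 MSTN+/- libraries lay above all 3 wild-type libraries, a larger share than the 25.2% of all tested genes. Only Hoxc13, an untested gene at no more than 0.57 FPKM, had all 7 below, where 6.86% of all tested genes did.

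That comparison averages over unlike wild-type libraries. Without wild-type replicate 1, 32 of 33 Hox genes were higher, against 42.2% of all genes, and 0 were lower by limma, at the adjusted or the unadjusted threshold, against 31.9%. The filter limits the lower calls here. In this fit a gene under 1 FPKM in all MSTN+/- libraries could not be tested, whether a Hox gene or not. The median was then 1.94. Against wild-type replicate 1 alone, a fit that assumes this library varies like the 7, 12 of 33 (36.4%) were higher and 6 (18.2%) were lower. All genes gave 33.7% and 10.8%, so the share of higher Hox genes was near the background. Their median of 0.36 was also near that of all genes, 0.26.

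**Figure D2:**
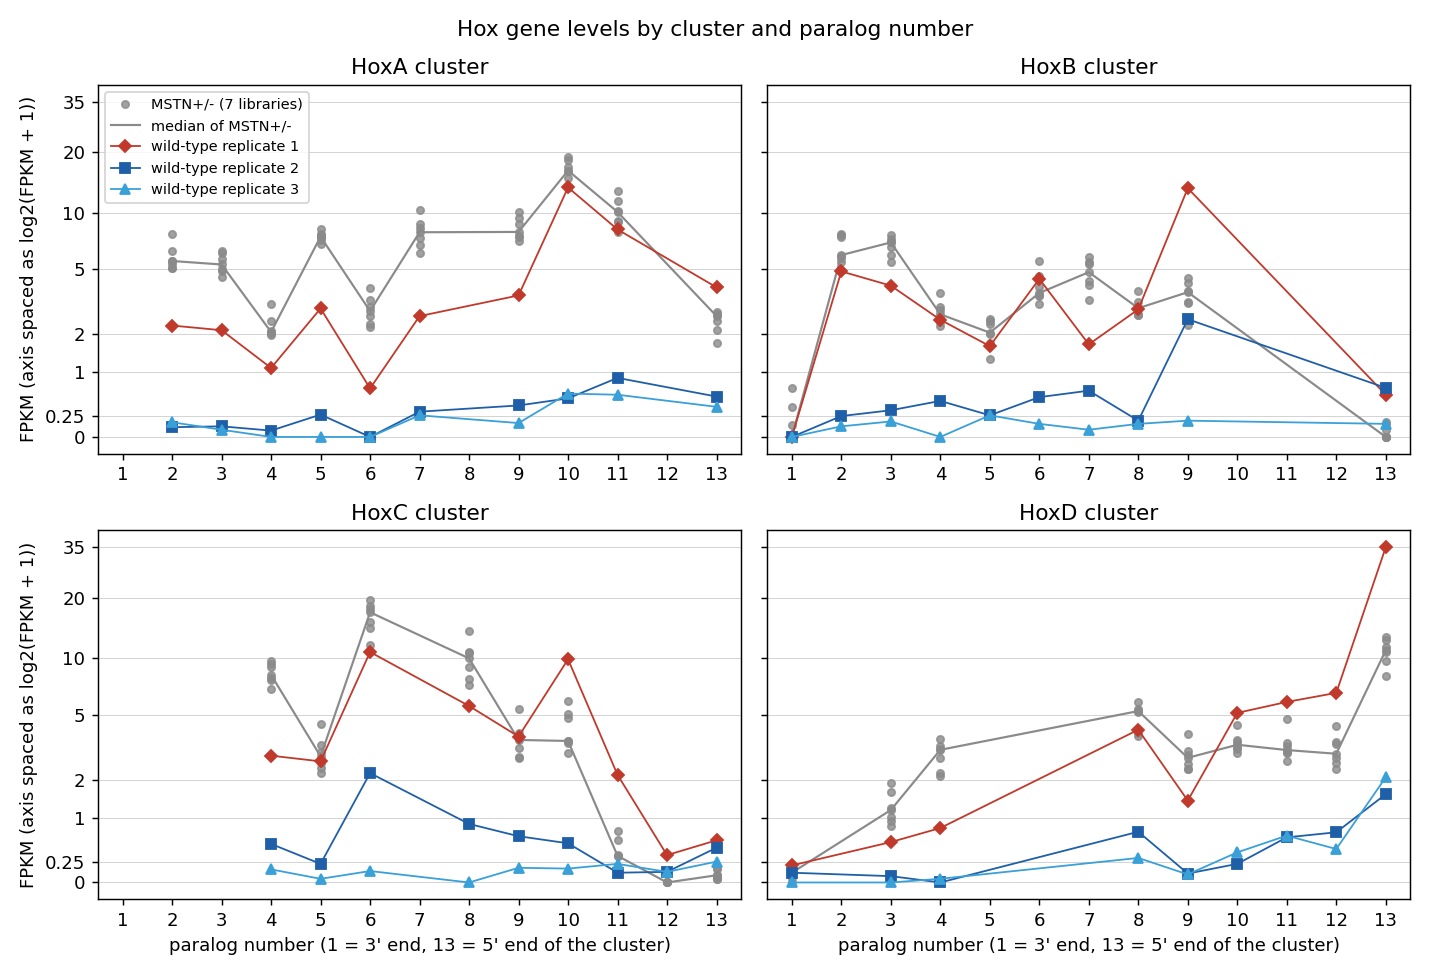
FPKM of Hox genes by paralog number, in 1 panel per cluster, on an axis spaced as log2(FPKM + 1), with grey points for the 7 MSTN+/- libraries, a grey line for their median and a line for each wild-type library. The 7 MSTN+/- libraries run close together, and wild-type replicates 2 and 3 stay at or under 2.52 FPKM. Wild-type replicate 1 lies below the MSTN+/- range at Hoxa2, Hoxb2, Hoxc4 and Hoxd3 and above it at Hoxa13, Hoxb9, Hoxc10 and Hoxd13. At Hoxd9 it falls back below the range.

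In HoxA, the genes from Hoxa2 to Hoxa9 lay below the MSTN+/- range in wild-type replicate 1, and Hoxa10, Hoxa11 and Hoxa13 did not. Hoxa2 (gene 15399), needed for second-arch and hindbrain identity, ran from 5.10 through a median of 5.56 to 7.76 FPKM among the MSTN+/- libraries and was at 2.29, 0.11 and 0.17 FPKM for wild-type replicates 1, 2 and 3. Hoxa3 (15400), a gene of pharyngeal organ and neck patterning, ran from 4.52 through 5.32 to 6.28 FPKM and was at 2.13, 0.12 and 0.08 FPKM in the same order. For both genes the groups did not overlap, and wild-type replicate 1 stood between the MSTN+/- libraries and the other wild-type libraries. Their differences were 2.06 ± 0.30 and 2.04 ± 0.29 (SE; limma adjusted p = 0.000472 and 0.000419), and 1.04 and 1.03 against wild-type replicate 1 alone (limma adjusted p = 0.00233 and 0.00116).

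Hoxa5 (15402), a regulator of cervical and thoracic level and of lung, varied little among the MSTN+/- libraries, with a ratio of highest to lowest of 1.21. It ran from 6.83 through 7.51 to 8.28 FPKM there and was at 2.95, 0.27 and 0 FPKM across the wild-type libraries. Hoxa7 (15404) ran from 6.16 through 7.92 to 10.3 FPKM, against 2.64, 0.31 and 0.26 FPKM. Hoxa9 (15405), also known from blood progenitors, ran from 7.11 through 7.95 to 10.1 FPKM, against 3.54, 0.40 and 0.16 FPKM. In these 3 genes, too, no wild-type library reached the lowest MSTN+/- library. Their differences with all libraries were 2.32, 2.29 and 2.25 (limma adjusted p of 0.000247 to 0.000654). Set against wild-type replicate 1 alone they were 1.11, 1.29 and 1.03 (limma adjusted p of 0.000101 to 0.00142).

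Hoxa10 (15395) and Hoxa11 (15396), genes of the lumbosacral level, the uterus and the middle limb segments, broke this pattern. Hoxa10 had the highest median of the cluster and ran from 13.3 through 16.3 to 19.0 FPKM, with 13.4, 0.51 and 0.59 FPKM across the wild-type libraries. Hoxa11 ran from 7.93 through 10.1 to 12.9 FPKM, with 8.19, 0.88 and 0.57 FPKM. For both, wild-type replicate 1 lay within the MSTN+/- range, at its low end. Their differences of 2.41 ± 0.58 and 1.87 ± 0.45 (limma adjusted p = 0.00766 and 0.00783) rest on wild-type replicates 2 and 3: against wild-type replicate 1 alone they were 0.27 and 0.26 (limma adjusted p = 0.211 and 0.337), and without it 3.49 and 2.68.

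Further HoxA genes were low. Hoxa4 ran from 1.97 to 3.13 FPKM and Hoxa6 from 2.25 to 3.94 FPKM among the MSTN+/- libraries, and both were called higher, by 1.31 and 1.70. Wild-type replicate 1 had 1.09 and 0.68 FPKM of them. Hoxa13, the most 5' gene, known for the hand and foot plate and the hindgut, ran from 1.72 to 2.82 FPKM and was at 3.95, 0.54 and 0.38 FPKM across the wild-type libraries. It was the only HoxA gene with wild-type replicate 1 above all 7, and it was not called with all libraries (0.65, limma adjusted p = 0.142). Its difference was -0.53 against that library alone. Without that library it was called higher (1.24, limma adjusted p = 4.59e-05).

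In HoxB, 4 of the 5 genes of paralogs 4 to 8 lay within the MSTN+/- range in wild-type replicate 1. Hoxb2 (103889), a gene of hindbrain and facial nerve patterning, ran from 5.50 through 5.99 to 7.72 FPKM among the MSTN+/- libraries and was at 4.87, 0.25 and 0.12 FPKM for wild-type replicates 1, 2 and 3. Hoxb3 (15410) ran from 5.50 through 7 to 7.68 FPKM and was at 4.04, 0.33 and 0.18 FPKM. Wild-type replicate 1 was thus just below the lowest MSTN+/- library in both. Hoxb3 was called against that library alone (0.61, limma adjusted p = 0.0135) and Hoxb2 was not (0.36, limma adjusted p = 0.156), while with all libraries both were, at 1.95 and 1.90.

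Hoxb6 (15414) ran from 3.14 through 3.66 to 5.59 FPKM, with 4.42, 0.53 and 0.15 FPKM across the wild-type libraries. Hoxb7 (15415) ran from 3.33 through 4.82 to 5.84 FPKM, with 1.69, 0.64 and 0.08 FPKM. These neighbours differed: wild-type replicate 1 lay inside the MSTN+/- range for Hoxb6 and below it for Hoxb7. Hoxb7 was called with all libraries (1.75, limma adjusted p = 0.000443) and also against only wild-type replicate 1 (1.08, limma adjusted p = 0.00522). Hoxb6 was called in the first (1.22, limma adjusted p = 0.0291) and not in the second (-0.13, limma adjusted p = 0.659).

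Hoxb9 (15417), a gene of thoracic and rib patterning, was the exception of the cluster. It ran from 2.30 through 3.70 to 4.46 FPKM among the MSTN+/- libraries and was at 13.3, 2.52 and 0.19 FPKM across the wild-type libraries. Wild-type replicate 1 was 3.59 times the MSTN+/- median, replicate 2 was inside the MSTN+/- range, and replicate 3 was far below it. With all libraries the difference was 0.20 ± 0.57 (limma adjusted p = 0.792), which hides opposite values: -1.67 against wild-type replicate 1 alone (limma adjusted p = 0.000593) and 1.14 without it (limma adjusted p = 0.0104).

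The remaining HoxB genes were low. Hoxb4, Hoxb5 and Hoxb8 ran from 2.28 to 3.65, from 1.30 to 2.53 and from 2.69 to 3.75 FPKM among the MSTN+/- libraries, and wild-type replicate 1 was within each range at 2.50, 1.64 and 2.91 FPKM. All 3 were called higher with all libraries, by 1.13, 0.91 and 1.19, and none was called against wild-type replicate 1 alone. Hoxb1 and Hoxb13, the ends of the cluster, never passed 0.69 FPKM. In the RefSeq cattle table Hoxb3 overlaps Hoxb4, Hoxb5 and Hoxb6, and 9 pairs of neighbouring Hox gene models overlap in all. The rows are annotated as Mus musculus, and overlaps of mouse gene models were not checked. The handling of strand and overlaps is not given in the sources used here, so values of any overlapping neighbours are uncertain.

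In HoxC, wild-type replicate 1 was below the MSTN+/- range at Hoxc4, Hoxc6 and Hoxc8 and above it at Hoxc10. Hoxc4 (15423) ran from 6.95 through 8.21 to 9.69 FPKM among the MSTN+/- libraries and was at 2.88, 0.51 and 0.15 FPKM across the wild-type libraries. Hoxc6 (15425), a gene of forelimb and thoracic level, ran from 11.6 through 17.0 to 19.5 FPKM, with 10.8, 2.22 and 0.13 FPKM. Hoxc8 (15426), another thoracic gene, ran from 7.24 through 9.98 to 13.6 FPKM, with 5.60, 0.87 and 0 FPKM. The groups did not overlap in these 3 genes, and their differences with all libraries were 2.31, 2.28 and 2.21 (limma adjusted p of 0.000247 to 0.00703). Against wild-type replicate 1 alone only Hoxc4 was called (1.27, limma adjusted p = 0.000304); Hoxc6 was at 0.53 and Hoxc8 at 0.70 (limma adjusted p = 0.0842 and 0.0546).

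Hoxc9 (15427) ran from 2.77 through 3.59 to 5.39 FPKM, with 3.76, 0.64 and 0.17 FPKM across the wild-type libraries. Hoxc10 (209448), a gene of lumbar level and hindlimb, ran from 3.01 through 3.54 to 5.94 FPKM, with 9.87, 0.52 and 0.16 FPKM. Between these adjacent genes wild-type replicate 1 passed from inside the MSTN+/- range to 2.79 times its median. Hoxc10 was lower in the MSTN+/- libraries than in wild-type replicate 1 (-1.09 ± 0.28, limma adjusted p = 0.0111) and higher than in the others (1.94, limma adjusted p = 2.1e-05), and with all libraries it was not called (0.93, limma adjusted p = 0.202).

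Of the low HoxC genes, Hoxc5 ran from 2.21 to 4.47 FPKM, with wild-type replicate 1 inside that range at 2.65 FPKM. Hoxc11 was at 0.11 to 0.74 FPKM among the MSTN+/- libraries and reached 1 FPKM only in wild-type replicate 1, at 2.16 FPKM. Hoxc12 and Hoxc13 never passed 0.57 FPKM. Without the filter on low values, 3 untested genes were called lower in the MSTN+/- libraries, namely Hoxb13, Hoxc12 and Hoxc13 (-0.46, -0.20 and -0.38, limma adjusted p = 0.0109, 0.0479 and 0.00284), all from values under 1 FPKM.

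In HoxD, wild-type replicate 1 was below the MSTN+/- range at Hoxd3, Hoxd4 and Hoxd9 and above it at the other 5' genes. Hoxd8 (15437) ran from 3.79 through 5.25 to 5.87 FPKM among the MSTN+/- libraries and was at 4.12, 0.72 and 0.30 FPKM across the wild-type libraries. Hoxd10 (15430), a gene of lumbar motor neurons and hindlimb, ran from 3 through 3.36 to 4.40 FPKM, with 5.13, 0.22 and 0.38 FPKM. Hoxd11 (15431), which patterns the forearm together with Hoxa11, ran from 2.65 through 3.12 to 4.77 FPKM, with 5.89, 0.62 and 0.65 FPKM. For Hoxd8 wild-type replicate 1 lay inside the MSTN+/- range, and for Hoxd10 and Hoxd11 it lay above all 7.

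Hoxd12 (15432) ran from 2.38 through 2.96 to 4.33 FPKM, with 6.59, 0.71 and 0.43 FPKM. Hoxd13 (15433), the most 5' gene of the cluster and a gene of the digits and the genital tubercle, ran from 8.07 through 10.97 to 12.8 FPKM, with 35.02, 1.57 and 2.08 FPKM. It was the highest Hox value of the table in wild-type replicate 1, 3.19 times the MSTN+/- median, and the highest Hox gene of wild-type replicate 3. The MSTN+/- mean was 10.9 ± 1.60 FPKM (SD, n = 7) and the mean of the 3 wild-type libraries 12.9 ± 19.2 FPKM (SD, n = 3), a spread that no single group level describes.

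Hoxd10, Hoxd11, Hoxd12 and Hoxd13 were lower in the MSTN+/- libraries than in wild-type replicate 1 alone, by limma at -0.46, -0.68, -0.89 and -1.61 (adjusted p = 0.0497, 0.03, 0.0119 and 0.000247). Without that library they were higher by 1.78, 1.39, 1.39 and 2.06, and with all 10 none was called (limma adjusted p of 0.0653 to 0.318). The direction was the other way at Hoxd4, toward the 3' end, and at Hoxd9, an exception among the 5' genes. Hoxd4 (2.13 to 3.62 FPKM) and Hoxd9 (2.36 to 3.91 FPKM) were higher in the MSTN+/- libraries by 1.11 and 0.67. They were at 0.79 and 1.40 FPKM for wild-type replicate 1. Hoxd3 ran from 0.83 to 1.91 FPKM, with 0.54 FPKM there, and Hoxd1 never passed 0.20 FPKM.

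Read by paralog number, the ratio of wild-type replicate 1 to the MSTN+/- median, over the sum of each paralog group, was below 1 from paralog 1 to paralog 8 and above 1 from paralog 9 to paralog 13. It was 0.435 for paralog 4, 0.338 for paralog 7 and 0.721 for paralog 8. For paralogs 9, 10 and 11 it was 1.21, 1.18 and 1.199, where that of paralog 9 came from Hoxb9 (3.59), since Hoxa9, Hoxc9 and Hoxd9 were at 0.445, 1.05 and 0.502, and for paralogs 12 and 13 it was 2.34 and 2.92. The sums of paralogs 10 and 11, at 28.4 and 16.2 FPKM, were still inside the MSTN+/- ranges of 20.1 to 28.5 and 11.1 to 17.7 FPKM, whereas paralog 9 was just above its range (22.0 against 16.3 to 20.6 FPKM). Paralog 13 was far above, at 40.1 FPKM against 9.83 to 15.6 FPKM, of which Hoxd13 gave 35.02 FPKM.

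Gene by gene, wild-type replicate 1 was below the range of the 7 MSTN+/- libraries in 16 of the 33 tested genes, within it in 10 and above it in 7. Of all tested genes 50.0% were below and 19.8% above, so these totals were near the background. Of the 6 untested genes, all of them low, 1 was within the range and 5 were above it. By position, of the 23 genes of paralogs 1 to 8, tested or not, 14 were below, 8 within and 1 above (Hoxd1, at 0.20 against 0.18 FPKM). Of the 16 genes of paralogs 9 to 13, 2 were below (Hoxa9 and Hoxd9), 3 within and 11 above, of which 4 were not tested. In the fit against wild-type replicate 1 alone, 10 of 21 tested genes of paralogs 1 to 8 were higher in the MSTN+/- libraries and 0 were lower, where all genes gave 33.7% and 10.8%. Of the 21 estimates 20 were positive as deposited, 17 with TPM, 15 with median-of-ratios and 11 with quantile normalization, with medians of 0.61, 0.58, 0.39 and 0.16. Of 12 tested genes of paralogs 9 to 13, 2 were higher and 6 were lower (Hoxb9, Hoxc10, Hoxd10, Hoxd11, Hoxd12 and Hoxd13), beside the same shares of 33.7% and 10.8%. The difference between the 2 classes was not tested.

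**Figure D3:**
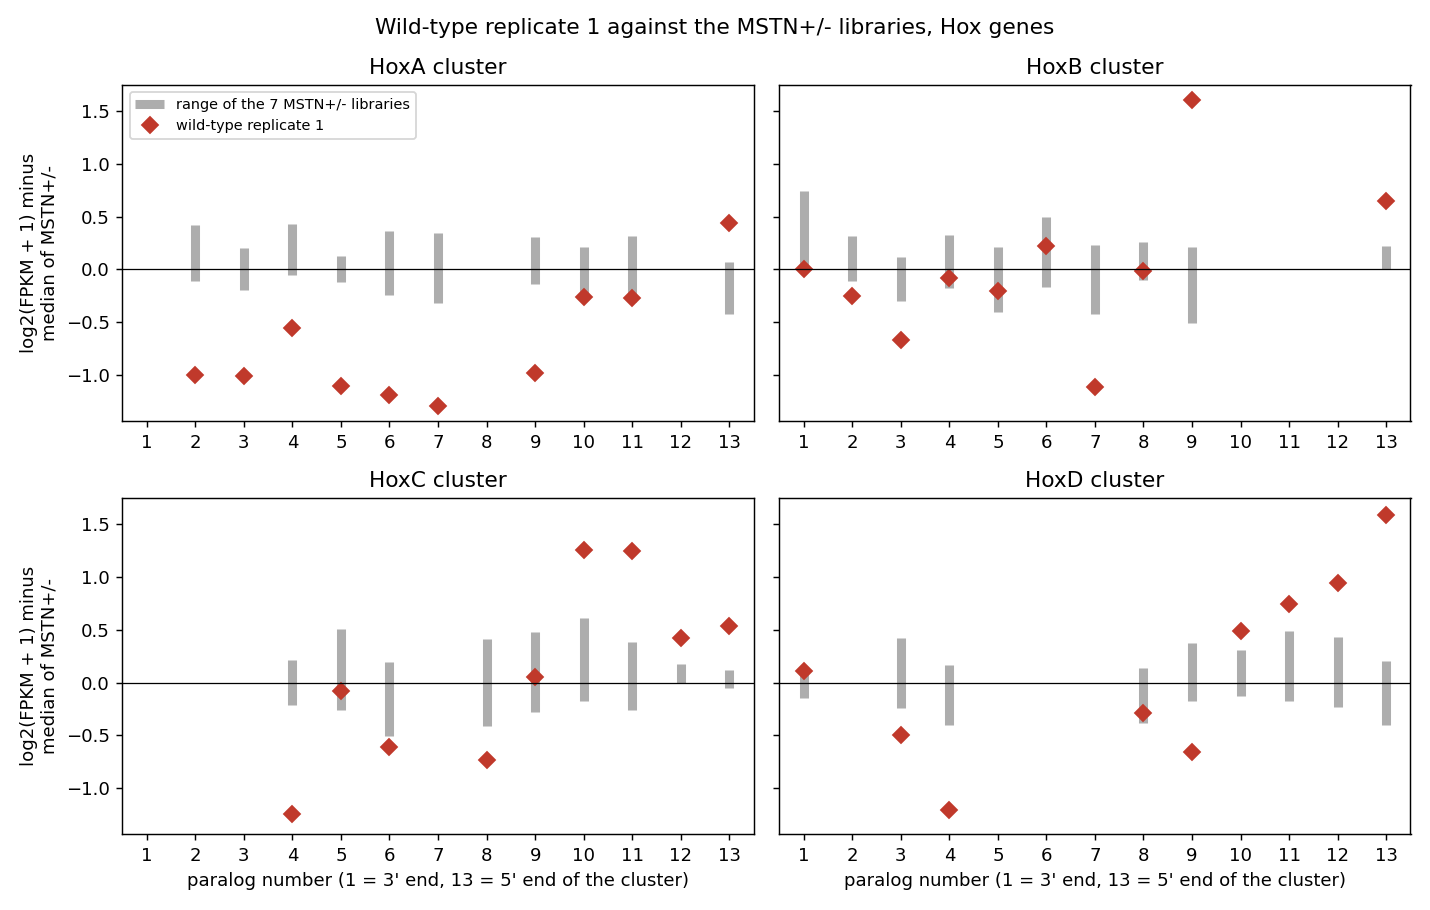
Difference of wild-type replicate 1 from the MSTN+/- median for Hox genes, on the log2(FPKM + 1) scale, by paralog number and cluster, with grey bars for the range of the 7 MSTN+/- libraries. Genes of paralogs 4 to 8 lie within or below the MSTN+/- range. Of paralogs 1 to 3 only Hoxd1, at 0.20 FPKM, lies above it. Of 16 genes of paralogs 9 to 13, 11 lie above it, some of them low and untested. Among the 12 tested genes 7 do, where 19.8% of all tested genes lie above.

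As a description, paralog number and the difference of wild-type replicate 1 from the MSTN+/- median rose together, with a Spearman rho of 0.56 over 39 genes. Within clusters rho was 0.88 in HoxD (8 tested genes), 0.77 in HoxC (6), 0.55 in HoxB (8) and 0.41 in HoxA (11). All points share 1 library, and neighbouring genes are not independent. How many 3' genes passed the threshold depended on the scaling: with quantile normalization, which moves the median of all genes from 0.26 to -0.08, higher calls in paralogs 1 to 8 numbered 3 in place of 10, and lower calls in paralogs 9 to 13 numbered 7 in place of 6. Beside this, wild-type replicate 1 had 2337 FPKM of 4 smooth muscle markers, against 166 to 310 FPKM among the MSTN+/- libraries, and 5.04 FPKM of 4 epithelial markers, against 64.3 to 146 FPKM. The part of these in the Hox profile was not tested.

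The most 5' gene at 1 FPKM or more was Hoxa13, Hoxb9 and Hoxd13 in the MSTN+/- libraries and in wild-type replicate 1 alike. In HoxC it was Hoxc10 in the MSTN+/- libraries and Hoxc11 in wild-type replicate 1. Of the 33 tested genes 29 reached 1 FPKM for wild-type replicate 1.

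In wild-type replicates 2 and 3, 31 of the 33 tested genes were below the whole MSTN+/- range in both libraries, where 42.0% of all tested genes were. Both were above it in 0 of the 33, where 31.7% of all tested genes were, and in 1 untested gene, Hoxc13, at 0.45 and 0.25 FPKM. All 33 passed the filter through the MSTN+/- libraries alone. The filter favours genes that are high there, so both counts rest partly on it. Wild-type replicate 2 had 3 Hox genes listed at 0 and wild-type replicate 3 had 9, against 1 in wild-type replicate 1 and 1 to 3 in the MSTN+/- libraries. The MSTN+/- median of Hoxd4 was 78.3 times the higher of the pair and that of Hoxa3 was 44.3 times, while for Hoxd12, Hoxd11 and Hoxa13 it was 4.17, 4.8 and 4.89 times. These ratios rest on values of under 1 FPKM in the pair, whose counting error is not known. For Hoxb9, which was not below the range in both, the ratio was 1.47, with 2.52 FPKM in wild-type replicate 2.

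The small remainder differed between the pair. In wild-type replicate 2, Hoxb9 (2.52 FPKM), Hoxc6 (2.22 FPKM) and Hoxd13 (1.57 FPKM) were the highest. In wild-type replicate 3, Hoxb9 and Hoxc6 were at 0.19 and 0.13 FPKM and Hoxd13 at 2.08 FPKM. Paralogs 9 to 13 held 53.1% of the Hox signal of wild-type replicate 2 and 75.7% of that of wild-type replicate 3, in sums of 10.6 and 6.59 FPKM. Over the 39 Hox genes the pair correlated at 0.413, far under their 0.975 over 14047 genes, as a description of values near the floor of the table.

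The MSTN+/- libraries were alike in their Hox profile. Over the 39 genes their 21 pairs correlated at 0.946 to 0.979 and with wild-type replicate 1 at 0.680 to 0.767, against 0.954 to 0.985 and 0.847 to 0.876 over 14047 genes. With wild-type replicates 2 and 3 the Hox profile correlated at 0.268 to 0.430. Where it could be computed for tested genes, the ratio of the highest to the lowest MSTN+/- library ran from 1.21 to 2.30 (Hoxd3), with a median of 1.65.

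Hox proteins bind DNA with cofactors of the TALE homeodomain families, Pbx, Meis and Pknox. Of 9 such genes, all tested, 4 were higher in the MSTN+/- libraries and 1 was lower, near the 31.8% and 12.8% of all tested genes, with a median difference of 1.16 against 0.17 over all genes. Meis3 ran from 10.9 through 12.4 to 13.1 FPKM among the MSTN+/- libraries and was at 6.40, 2.03 and 1.32 FPKM across the wild-type libraries (1.82, limma adjusted p = 0.000677). Meis2, a gene of proximal limb and neural crest, ran from 14.3 through 14.6 to 17.5 FPKM, with 9.44, 1.13 and 0.47 FPKM (2.36, limma adjusted p = 0.00289). Pbx3 ran from 13.6 through 14.7 to 17.1 FPKM, with 12.8, 4.54 and 3.78 FPKM (1.16, limma adjusted p = 0.00663). Wild-type replicate 1 was the highest wild-type library for all 3. The other called genes were Meis1, which was higher, and Pknox2, which was lower and was at 5.21 FPKM for wild-type replicate 1 against 0.34 to 2.32 FPKM. Against wild-type replicate 1 alone 2 were higher and 2 lower (all genes 33.7% and 10.8%), and without it 5 were higher and 0 lower by limma (all genes 42.2% and 31.9%).

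**Figure D4:**
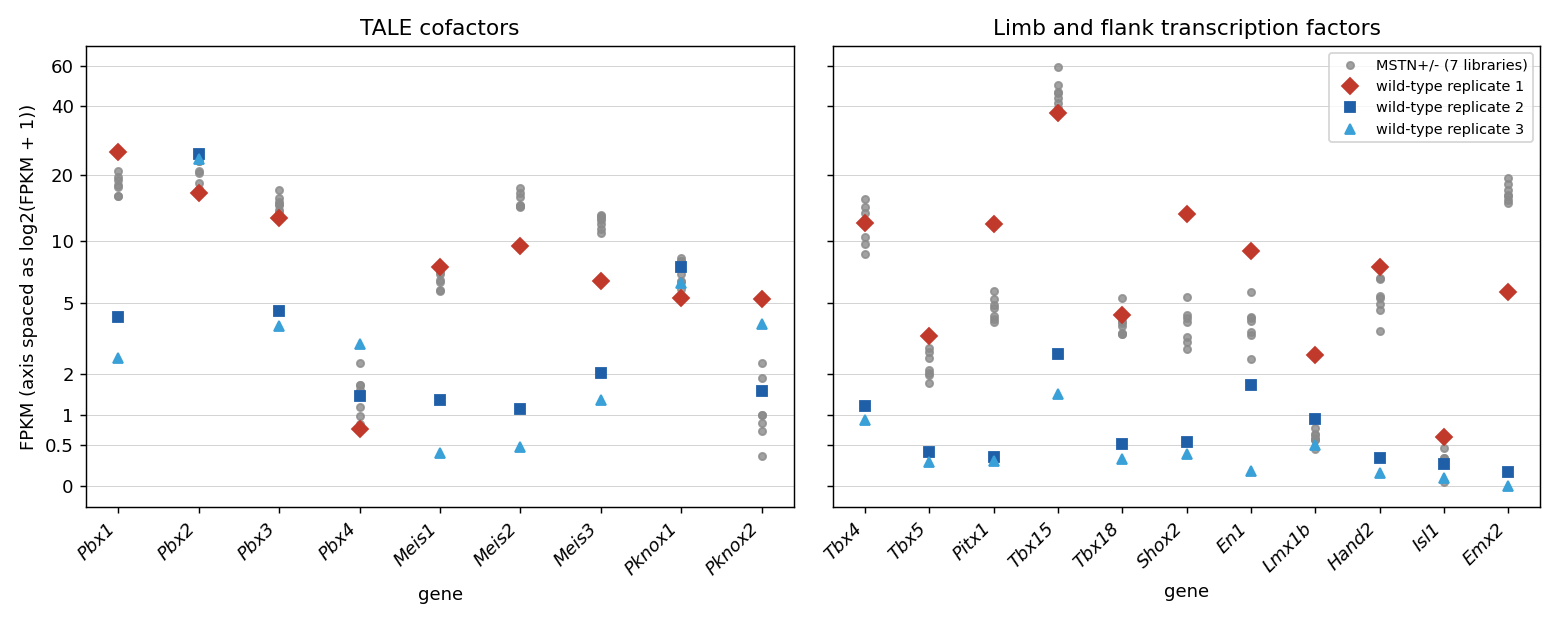
FPKM of Hox cofactor genes and of limb and flank transcription factor genes in each library, 1 point per library, on an axis spaced as log2(FPKM + 1). The MSTN+/- libraries cluster, wild-type replicates 2 and 3 are low for most genes, and wild-type replicate 1 lies above the MSTN+/- range for Pitx1 and Shox2 (11.96 and 13.3 FPKM) and below it for Emx2 (5.65 FPKM).

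Transcription factors of limb and flank position, which act beside the Hox code in mesenchyme, were measured too. Of 11 genes 9 were tested, 5 were higher in the MSTN+/- libraries and 0 lower by limma (median 1.16), beside 31.8% and 12.8% of all tested genes. Emx2, a gene of the shoulder blade and urogenital system, ran from 14.95 through 16.2 to 19.3 FPKM, with 5.65, 0.15 and 0 FPKM across the wild-type libraries (3.17, limma adjusted p = 0.000558). Tbx15, also of the shoulder blade and dorsal skin, ran from 39.4 through 45.6 to 59.4 FPKM, with 37.6, 2.64 and 1.46 FPKM (2.74, limma adjusted p = 0.00824). Tbx4, a gene of hindlimb and lung mesenchyme, ran from 8.70 through 12.2 to 15.6 FPKM, with 12.1, 1.18 and 0.90 FPKM (1.76, limma adjusted p = 0.0177). Wild-type replicates 2 and 3 were thus low in each, and wild-type replicate 1 was below the MSTN+/- range in Emx2, just below it in Tbx15 and inside it in Tbx4.

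Against wild-type replicate 1 alone, 1 limb or flank gene was higher (Emx2) and 3 were lower, beside 33.7% and 10.8% of all genes. The 3 were named after their values were seen. Pitx1, which specifies hindlimb, was at 3.98 to 5.71 FPKM and at 11.96, 0.33 and 0.28 FPKM (-1.19, limma adjusted p = 0.000605). Shox2, a gene of the proximal limb, was at 2.83 to 5.37 FPKM and at 13.3, 0.54 and 0.37 FPKM (-1.58, limma adjusted p = 0.000959). En1, a gene of ventral limb ectoderm and dermis, was at 2.48 to 5.65 FPKM and at 8.94, 1.68 and 0.16 FPKM (-1.04, limma adjusted p = 0.0133). Without that library all 9 tested genes were higher, where 42.2% of all genes were.

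Head mesenchyme, which is largely free of Hox expression, was represented by 12 genes, of which 5 were tested, 2 were higher and 0 lower by limma (median 0.64), near the 31.8% higher of all tested genes. Foxd1 ran from 22.8 through 32.0 to 44.9 FPKM, with 6.41, 0.20 and 0.12 FPKM across the wild-type libraries (3.99, limma adjusted p = 0.000196). Pax9 was at 0.52 to 1.52 FPKM, with 0.56, 0.22 and 0.08 FPKM (0.64, limma adjusted p = 0.0181). Alx4 was at 1.53 to 2.58 FPKM, with 2.82, 0.29 and 0.25 FPKM, and was not called (0.74, limma adjusted p = 0.0779). Without wild-type replicate 1, 3 of the 5 were higher and 1 lower (all genes 42.2% and 31.9%), and against it alone 1 and 1 (33.7% and 10.8%). Of 7 genes of the ParaHox family and trunk patterning only Gdf11, a signal for the trunk-to-tail transition, was tested. It was at 3.12 to 4.55 FPKM, with 8.96, 1.72 and 1.38 FPKM, and was not called (0.22, limma adjusted p = 0.641), with values of -1.09 against wild-type replicate 1 alone and 0.88 without it that both passed.

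Retinoic acid activates 3' Hox genes in the embryo. Of 18 genes of its synthesis, transport, breakdown and receptors 16 were tested, 11 were higher in the MSTN+/- libraries and 0 lower by limma (median 1.48), beside 31.8% and 12.8% of all tested genes. Aldh1a1, a retinaldehyde dehydrogenase, ran from 6.26 through 8.42 to 13.4 FPKM, with 1, 0.05 and 0 FPKM across the wild-type libraries (2.96, limma adjusted p = 2.1e-05). Dhrs3, a retinaldehyde reductase, ran from 24.3 through 42.4 to 70.1 FPKM, with 9.89, 4.59 and 4.32 FPKM (2.64, limma adjusted p = 0.00011). In both the groups did not overlap. Against wild-type replicate 1 alone 7 of the 16 were higher and 1 was lower, where all genes gave 33.7% and 10.8%. Without it 11 of 15 were higher and 0 lower by limma, where all genes gave 42.2% and 31.9%.

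Polycomb proteins keep Hox clusters silent and Trithorax proteins keep them active. Of 11 Polycomb genes, all tested, 5 were higher in the MSTN+/- libraries and 4 lower (median -0.28), beside 31.8% and 12.8% of all tested genes. Ring1, a ubiquitin ligase of complex 1, ran from 10.4 through 10.8 to 12.9 FPKM, with 6.25, 4.90 and 5.40 FPKM across the wild-type libraries (0.94, limma adjusted p = 0.000138). Cbx8, a chromodomain subunit of the same complex, ran from 3.68 through 4.55 to 5.72 FPKM, with 2.36, 0.86 and 0.71 FPKM (1.37, limma adjusted p = 0.000638). Ezh1, a methyltransferase of complex 2, ran from 10.3 through 11.4 to 13.8 FPKM, with 2.61, 7.60 and 7.76 FPKM (0.96, limma adjusted p = 0.0115). The MSTN+/- libraries were above every wild-type library in these 3 genes.

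The 4 lower Polycomb genes, named after their values were seen, were Eed, Suz12 and Ezh2, the core of complex 2, and Rnf2. Eed was at 14.2 to 23.7 FPKM among the MSTN+/- libraries, at 16.8 FPKM for wild-type replicate 1 and at 81.0 and 81.0 FPKM for wild-type replicates 2 and 3 (-1.35, limma adjusted p = 0.0239). For all 4, wild-type replicate 1 lay within the MSTN+/- range, and none was called against it alone. Of 8 Trithorax genes, all tested, 0 were higher and 2 were lower by limma (median -0.32), beside the same background. Ash2l and Rbbp5, subunits of the histone H3 lysine methyltransferase complexes, were at 23.7 to 41.0 and 9.45 to 13.8 FPKM, with 23.9, 134 and 112 FPKM and 10.5, 26.8 and 25.6 FPKM across the wild-type libraries (-1.27 and -0.71, limma adjusted p = 0.0385 and 0.0392). Wdr5, of the same complexes, was at 25.8 to 36.8 FPKM, with 21.8, 92.7 and 100 FPKM, and was not called (-0.93, limma adjusted p = 0.0733). These 7 genes were highest in wild-type replicates 2 and 3, the libraries with the least Hox signal and the highest pluripotent marker sums, and the part of cell makeup was not tested. Without wild-type replicate 1, 5 Polycomb genes were higher and 6 lower, and 1 Trithorax gene was higher and 4 lower, beside 42.2% and 31.9% of all genes. Against it alone the counts were 4 and 0, and 1 and 0, beside 33.7% and 10.8%.

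Genes that border the clusters moved in both directions. Of 12 genes 11 were found and 8 tested, 4 were higher in the MSTN+/- libraries and 1 was lower, beside 31.8% and 12.8% of all tested genes, with a median of 0.17, the same as that of all genes. Calcoco1, beside HoxC, ran from 24.9 through 27.4 to 28.9 FPKM, with 10.8, 17.1 and 14.1 FPKM across the wild-type libraries (0.92, limma adjusted p = 0.000307). Smug1, a DNA repair gene also beside HoxC, ran from 5.53 through 6.24 to 7.58 FPKM, with 4.45, 4.08 and 3.07 FPKM (0.61, limma adjusted p = 0.00358). Mtx2, a mitochondrial import gene beside HoxD, ran from 30.3 through 38.0 to 39.9 FPKM, with 25.8, 25.9 and 28.7 FPKM (0.41, limma adjusted p = 0.0176). Evx2, the homeobox gene next to Hoxd13 that was singled out after its values were seen, was at 0.09 to 0.26 FPKM and at 0.89, 0.02 and 0.07 FPKM, and was not tested. When wild-type replicate 1 was left out, 3 bordering genes were higher and 3 lower (all genes 42.2% and 31.9%), and against it alone 5 and 1 of 7 (33.7% and 10.8%).

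Of 12 noncoding RNAs of the clusters 7 were found and 2 tested. Hoxa11os, transcribed antisense to Hoxa11, ran from 11.9 through 14.2 to 17.0 FPKM among the MSTN+/- libraries, with 7.67, 0.77 and 1.09 FPKM across the wild-type libraries (2.22, limma adjusted p = 0.00172). Wild-type replicate 1 was below the MSTN+/- range for Hoxa11os (0.77 against it alone, limma adjusted p = 0.00509) and inside it for Hoxa11. Without a statement on strand the reads of the 2 genes cannot be told apart. Halr1, a transcript near the 3' end of HoxA, had the opposite order, at 3.26 to 10.3 FPKM and at 0.17, 26.8 and 21.7 FPKM. It was not called with all libraries (-0.65, limma adjusted p = 0.536), was higher in the MSTN+/- libraries than in wild-type replicate 1 alone (2.30, limma adjusted p = 0.00324) and lower than in the other 2 (-2.12, limma adjusted p = 0.00018). Hotair, at the 5' part of HoxC, did not pass 0.08 FPKM.

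How firmly single Hox genes were called depended on the wild-type libraries. Hoxb4, Hoxb5, Hoxb6, Hoxb8, Hoxc5, Hoxc9 and Hoxd8 were called with all libraries but not without wild-type replicate 2, nor without replicate 3 (limma adjusted p of 0.0506 to 0.154). These are genes with wild-type replicate 1 within the MSTN+/- range. Hoxa2, Hoxa3, Hoxa4, Hoxa5, Hoxa6, Hoxa7, Hoxa9, Hoxb3, Hoxb7, Hoxc4, Hoxd4 and Hoxd9 were called higher under every scaling and with each library left out in turn, and also against wild-type replicate 1 alone. In that last fit quantile normalization turned Hoxa4 to -0.11 and Hoxd9 to -0.016.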

How the data were processed

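Gene expression in 10 libraries was taken from 1 deposited table of FPKM values, which the authors computed, per the file headers. Aligner, counting tool, build, strand setting: not given in the sources used here. FPKM values are not counts, and depth per library is unknown, so no counting intervals are given. Groups came from the genotype label, and replicate numbers only name libraries in accession order. No 2 libraries were identical.

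The model was fitted in R 4.3.3 with limma 3.58.1 to log2(FPKM + 1), with an intensity trend, 8 residual degrees of freedom and no covariate. It covered the 14047 genes that reached 1 FPKM in 3 or more libraries. The code was tested on simulated data. P-values were adjusted over all tested genes (Benjamini-Hochberg, threshold 0.05). Members that reached 5 FPKM were named with their values, those that reached 1 FPKM with their range, and the 3 genes of smallest p were named from each pathway list, except that some results are not reported here. The members and lists were chosen with earlier results of these data known. Alternatives were 3 scalings, a pseudocount of 0.1, other filters, library weights and leaving out each library. Fits against wild-type replicate 1 alone under other scalings were chosen after seeing the data. No sequences were used here.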

Additional observations from a re-analysis of the deposited data

Results flagged for a closer look

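Among the 7 MSTN+/- libraries, the 33 tested Hox genes and the 4 cluster sums were each checked for a library that stood apart from the rest by more than Dixon's 95% limit, and 3 of these 37 groups had one. Chance gives about 1 in 20 groups. Hoxa4 was at 3.13 FPKM in MSTN+/- replicate 4, with the next library at 2.45 FPKM. Hoxd10 was at 4.4 FPKM in MSTN+/- replicate 7, with the next at 3.57 FPKM. Hoxd11 was at 4.77 FPKM in the same library, with the next at 3.46 FPKM. Hoxd10 and Hoxd11 are neighbours whose gene models overlap in the RefSeq cattle table. Their rows are annotated as Mus musculus, and mouse gene models were not checked. Whether these 2 values share fragments is therefore not known. Leaving out either library changed the call of none of these 3 genes.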

How the results depend on the processing

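Depth is unknown, so genes under about 1 FPKM carry the least weight, and 3 wild-type libraries of unlike profile limit every comparison of the labelled groups. No paired analysis was possible because the labels carry no replicate numbers. Over all genes, 4468 were higher and 1800 lower as reported, 3264 and 3230 with median-of-ratios, 4060 and 2303 with TPM, 2874 and 3851 with quantile normalization, and 4862 and 3368 with library weights. The median difference of all genes was 0.17 as deposited, 0.14 with TPM and -0.10 with quantile normalization. Leaving out each library gave 3445 to 5898 higher and 791 to 4449 lower genes, the extremes of lower genes being 4449 without wild-type replicate 1 and 793 and 791 without replicates 2 and 3.

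Of Hox genes, 25 were higher as reported, 18 to 32 with a library left out, 17 with quantile normalization, 12 against wild-type replicate 1 alone, and 10 of the 11 genes with a mean of at least 5 FPKM. Lower Hox genes numbered 0 as reported, 0 to 0 with a library left out, 3 with no filter and 6 against wild-type replicate 1 alone. Quantile normalization lost Hoxb4, Hoxb5, Hoxb6, Hoxb8, Hoxc5, Hoxc9, Hoxd3 and Hoxd8, and turned Hoxb9 to -0.28; Hoxb9 ran from -0.66 without wild-type replicate 3 to 1.14 without replicate 1. Median-of-ratios lost Hoxb6 and Hoxc9, MSTN+/- replicates 1 and 7 left out lost Hoxb6, and replicate 5 left out lost Hoxc9. Against wild-type replicate 1 alone the sign turned for Hoxa13 (-0.53), Hoxb6 (-0.13), Hoxb9 (-1.67), Hoxc9 (-0.061), Hoxc10 (-1.09), Hoxd10 (-0.46), Hoxd11 (-0.68), Hoxd12 (-0.89) and Hoxd13 (-1.61). In that fit, quantile normalization left 4 higher Hox genes and turned Hoxa4 to -0.11 and Hoxd9 to -0.016. At 5 FPKM in place of 1 FPKM, 15, 13, 13, 13, 17, 15 and 15 Hox genes counted as expressed in MSTN+/- replicates 1 to 7 and 10, 0 and 0 in the wild-type libraries, and at 0.5 FPKM wild-type replicates 2 and 3 had 17 and 4.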
